A study of Mus musculus with 8 samples.

Results

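The contractile and myofibroblast genes are 33 genes that encode smooth muscle actins, myosin subunits, actin-binding and focal adhesion proteins and their transcriptional regulators. They were taken by gene symbol from a table of 24930 genes measured in mouse intestinal stroma. Of the 33, 30 reached at least 1 FPKM in at least 2 libraries and entered the tests, among 12927 genes that did so. FPKM scale the fragments of a gene by transcript length and sequencing depth, so levels can be set side by side between genes. Actc1, Myocd and Pdlim3 did not reach that level.

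The cells were Pdgfra-low mesenchyme, stromal cells that carry a low level of the receptor Pdgfra, and poly-A RNA was sequenced from GFP-positive cells after dead cells had been removed by sorting. There were 2 libraries of stroma cocultured with duodenal enteroids carrying a gain-of-function form of β-catenin (BcatGOF), 3 of stroma cocultured with wild-type enteroids, and 3 of mesenchyme only, seeded in Matrigel without enteroids. The cocultures held 50000 stromal cells in droplets of 20 µl and lasted 7 days in a medium without EGF, R-spondin1 and Noggin. The design text gives no seeding number and no separate culture time for mesenchyme only. The allele and Cre driver behind BcatGOF, the line that provides GFP, and the age and strain of the mice are not described in the sources used here. The design text also describes daily SB525334, a TGF-β receptor inhibitor dissolved in DMSO, but no library is labelled with it. The labels do not say whether replicates came from separate animals or cultures, so p-values measure only the spread between these libraries. That spread may be technical between libraries of like Xist and Ddx3y level, while the libraries numbered 2 differ from the others in both genes.

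In contractile cells, filaments of smooth muscle actin slide against myosin after myosin light chain kinase has phosphorylated the regulatory light chain, and calponins, caldesmon, transgelin and tropomyosins line or regulate the actin filament. The same proteins mark the myofibroblast, a fibroblast state that builds stress fibres anchored at focal adhesions, and in the intestine they are found in the muscle layers and in stromal cells close to the epithelium. Many of these genes are transcribed by serum response factor (SRF), which binds a sequence called the CArG box and works with the coactivators myocardin and the myocardin-related transcription factors. Tension and TGF-β are known to raise their expression in fibroblasts. In bulk RNA such as this, fewer cells of a type and less RNA per cell cannot be told apart.

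Promoter sequences are shown because the CArG box is the element that many of these genes share. RefSeq promoter windows of the build GRCm38.p6, running from 250 bases before to 50 after a gene's start, were matched by symbol for 28 of the 33 genes (34 windows). Tagln, Actg2, Myh11, Myocd and Csrp2 had no window. The CArG box reads the same on both strands, and its core is a pair of C, a run of A or T, and a pair of G. An exact CArG box stood in the windows of 7 of the 28 genes (25%), namely Actc1, Acta1, Myl9, Cnn2, Myl6, Vcl and Srf, against 1.81% of the 27025 mouse genes with a window. With 1 mismatch allowed in the run of A or T, 9 of the 28 genes (32.1%) had a match, against 11.3% of all genes with a window. The windows of 5 genes follow, because they cover the marker actin, a regulatory and an essential myosin light chain, a calponin and the regulator itself. They read 5′ to 3′ on the gene's strand, with every CArG box in capitals, matches with 1 mismatch included.
Acta2 promoter, smooth muscle α-actin, chr19:34255324-34255623, minus strand: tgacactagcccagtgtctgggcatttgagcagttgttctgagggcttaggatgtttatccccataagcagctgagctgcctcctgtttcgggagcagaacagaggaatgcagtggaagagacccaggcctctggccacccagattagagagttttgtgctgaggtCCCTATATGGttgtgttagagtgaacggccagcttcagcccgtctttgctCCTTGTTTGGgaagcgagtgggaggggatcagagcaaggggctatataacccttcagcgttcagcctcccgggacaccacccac
Myl9 promoter, regulatory light chain, chr2:156775214-156775513, plus strand: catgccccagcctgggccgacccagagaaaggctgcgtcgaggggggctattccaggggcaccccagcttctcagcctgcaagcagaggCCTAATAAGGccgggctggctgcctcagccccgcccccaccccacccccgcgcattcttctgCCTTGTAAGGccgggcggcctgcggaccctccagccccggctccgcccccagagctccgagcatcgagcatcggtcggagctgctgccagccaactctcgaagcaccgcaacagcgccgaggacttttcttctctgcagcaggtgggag
Myl6 promoter, essential light chain, chr10:128492960-128493259, minus strand: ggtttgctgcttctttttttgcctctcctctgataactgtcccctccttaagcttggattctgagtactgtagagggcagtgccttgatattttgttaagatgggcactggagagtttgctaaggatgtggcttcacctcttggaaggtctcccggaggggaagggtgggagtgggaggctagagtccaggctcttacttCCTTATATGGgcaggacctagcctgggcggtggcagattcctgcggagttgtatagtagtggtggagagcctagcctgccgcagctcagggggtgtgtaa
Cnn2 promoter, calponin 2, chr10:79988350-79988649, plus strand: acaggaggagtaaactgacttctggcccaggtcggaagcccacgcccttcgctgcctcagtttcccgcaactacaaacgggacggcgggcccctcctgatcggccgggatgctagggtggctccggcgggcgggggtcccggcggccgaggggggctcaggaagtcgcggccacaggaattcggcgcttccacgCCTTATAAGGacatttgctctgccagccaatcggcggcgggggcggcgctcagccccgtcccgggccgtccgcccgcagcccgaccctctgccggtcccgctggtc
Srf promoter, serum response factor, chr17:46556113-46556412, minus strand: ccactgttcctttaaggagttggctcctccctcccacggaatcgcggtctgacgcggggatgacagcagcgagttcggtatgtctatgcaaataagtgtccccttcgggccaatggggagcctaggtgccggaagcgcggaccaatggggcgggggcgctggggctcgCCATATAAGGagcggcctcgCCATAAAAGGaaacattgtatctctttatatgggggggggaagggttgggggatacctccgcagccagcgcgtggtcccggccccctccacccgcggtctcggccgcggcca
Acta2 had no exact box in this window and a pair with 1 such mismatch each, CCCTATATGG 84 bases and CCTTGTTTGG 34 bases before the start. Myl9 had an exact box 161 bases before the start and Cnn2 56 bases. Myl6 has windows at 2 starts, and the one shown had an exact box 50 bases before its start. Srf had 2 exact boxes, 82 and 62 bases before its own start. A match is a run of letters, not a measured site of binding, and the genes with an exact box included Myl9, whose level varied widely between libraries, and Myl6, whose level varied little.

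The FPKM of a library summed to between 438585 and 598384, with 7311 to 7955 genes listed at 0. The table holds no counts, so the absolute depth is unknown, and the relative depth, estimated from the steps of low values, lay between 0.807 and 1.0 of the deepest library. The libraries fall into replicate numbers that cut across the groups. The summed FPKM was larger in the libraries numbered 2 (577707 to 598384) than in the other 5 (438585 to 491706). Xist, expressed from the inactive X chromosome of female cells, was at 27.2 to 34.9 FPKM in the 3 libraries numbered 2 and at most 0.174 FPKM in the other 5. Ddx3y, on the Y chromosome, was at no more than 0.109 FPKM in those numbered 2 and at 15.8 to 20.8 FPKM in the other 5. The stromal markers were present in all 8 libraries, with Pdgfra at 99.8 and 52.4 FPKM in BcatGOF cocultures, 86.9, 86.5 and 108 FPKM in wild-type cocultures, and 92.3, 101.4 and 134 FPKM in mesenchyme only. In BcatGOF replicate 2, the library with the least Pdgfra, other stromal markers moved in both directions. Thy1 was at 30.03 FPKM there, against 118 to 191 FPKM in the other 7 libraries, and Col1a2 at 436 FPKM, against 1035 to 3106 FPKM. Dcn was the highest of the 8 there, at 5672.5 FPKM against 2716 to 3441 FPKM, as was Cd81, at 333 FPKM against 208 to 290 FPKM. This library stands apart in many of the values that follow, and the members' counts and medians in both comparisons of BcatGOF coculture are given with and without it.

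The 33 genes together held 1.13% and 0.548% of all FPKM in BcatGOF cocultures 1 and 2, 1.54%, 0.618% and 1.02% in wild-type cocultures 1 to 3, and 1.28%, 0.867% and 1.31% in mesenchyme only 1 to 3. Each list of values in the text keeps that order of replicate numbers. The replicate numbered 2 had the smallest share in each group. A block of genes (Acta2, Actg2, Tagln, Cnn1, Myl9, Mylk, Lmod1 and Myh11) varied widely and together across libraries, while Myl6, Tpm4, Cald1 and Srf kept similar levels throughout.

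**Figure D1:**
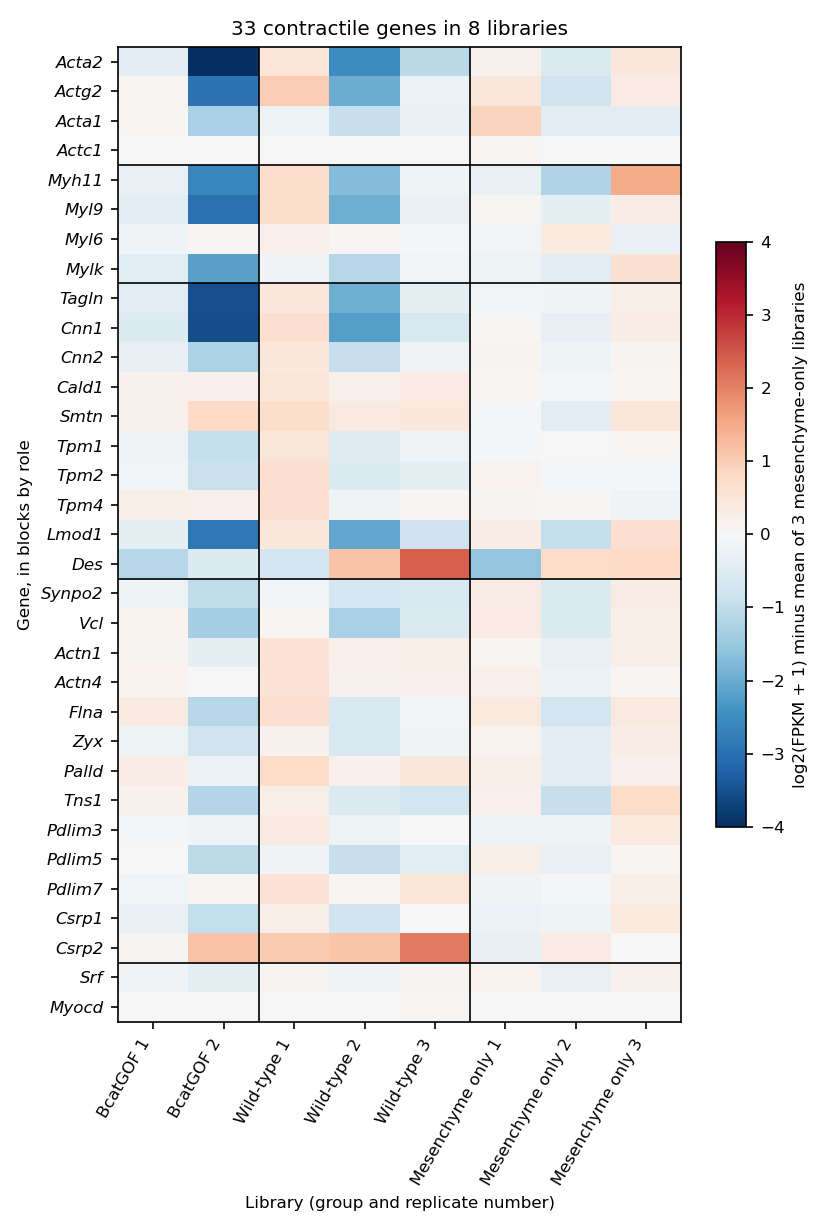
Each row is a gene and each column a library; the colour is log2(FPKM + 1) minus the mean of the 3 mesenchyme-only libraries, in blocks by role, and values below -4 take the darkest blue (Acta2 in BcatGOF replicate 2, at -4.44). BcatGOF replicate 2 and wild-type replicate 2 hold the deepest blue, with 15 and 9 of the 30 tested genes more than 1 log2 unit below that mean, against at most 1 in any other library. Mesenchyme only replicate 2 has the most tested genes below the mean by any amount (25). Csrp2 is red in all 3 wild-type columns (1.06, 1.11 and 2.08) and in BcatGOF replicate 2 (1.13).

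Among the actins, Acta2, which encodes the smooth muscle α-actin used as the usual myofibroblast marker, was at 375 and 22.2 FPKM in BcatGOF cocultures, 714, 86.5 and 237 FPKM in wild-type cocultures, and 570, 334 and 668 FPKM in mesenchyme only. The lowest and the highest of these values both came from cocultures, and the ranges of all 3 groups overlapped. By level it ranked between 83 and 291 among all 24930 genes in 6 of the libraries, but at 1041 in wild-type replicate 2 and at 3859 in BcatGOF replicate 2. On the log2(FPKM + 1) scale, which understates changes of genes near 0, its fitted difference was -2.43 (SE 1.21) for BcatGOF coculture against mesenchyme only (adjusted p = 0.896 in limma). Against wild-type coculture it was -1.4 (SE 1.21, adjusted p = 1 in limma). Neither passed.

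Actg2, the γ-actin of visceral smooth muscle, was at 234 and 27.7 FPKM in BcatGOF cocultures, 449, 56.0 and 188 FPKM in wild-type cocultures, and 307, 129 and 279 FPKM in mesenchyme only. It followed Acta2 from library to library, with the replicate numbered 2 lowest in each group. The ratio of Acta2 to Actg2 was 1.60 and 0.801 in BcatGOF cocultures, 1.59, 1.55 and 1.26 in wild-type cocultures, and 1.86, 2.59 and 2.4 in mesenchyme only. Every coculture library had a lower ratio than every mesenchyme-only library, a pattern noticed in the data and not tested. Acta1, the actin of skeletal muscle, was low, at 5.20 and 1.45 FPKM in BcatGOF cocultures, 4.22, 2.19 and 4.04 FPKM in wild-type cocultures, and 10.1, 3.47 and 3.40 FPKM in mesenchyme only. Actc1, the cardiac actin, was listed at 0 in 7 libraries and at 0.0345 FPKM in mesenchyme only replicate 1. These actins are close in sequence, but only 0.636% to 3.72% of the 31-base words in their GENCODE M21 transcripts were shared with another actin gene.

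Of the myosin subunits, Myl9, the regulatory light chain of smooth muscle myosin, was at 203 and 34.5 FPKM in BcatGOF cocultures, 452, 71.1 and 232 FPKM in wild-type cocultures, and 286, 216 and 343 FPKM in mesenchyme only. Both BcatGOF values lay under all 3 mesenchyme-only values, and the fitted difference was -1.71 (SE 0.89, adjusted p = 0.897 in limma). Myl6, the essential light chain that smooth muscle and non-muscle myosins share, was at 824 and 948 FPKM in BcatGOF cocultures, 1049, 950 and 858 FPKM in wild-type cocultures, and 852, 1209 and 737 FPKM in mesenchyme only. It was the most abundant of the 33 genes in all but mesenchyme only 3, where Tpm1 was at 739 FPKM, and its groups overlapped fully (BcatGOF against mesenchyme only -0.05, SE 0.28). The ratio of Myl9 to Myl6 was 0.247 and 0.0364 in BcatGOF cocultures, 0.431, 0.0748 and 0.270 in wild-type cocultures, and 0.336, 0.179 and 0.465 in mesenchyme only. The ratio was lowest in the replicate numbered 2 of each group.

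Myh11, the myosin heavy chain of differentiated smooth muscle, was at 5.12 and 0.221 FPKM in BcatGOF cocultures, 11.1, 1.22 and 5.59 FPKM in wild-type cocultures, and 5.05, 2.26 and 20.0 FPKM in mesenchyme only. These levels were far under those of Acta2 in the same libraries, and mesenchyme only replicate 3 was the highest. Mylk, the kinase that phosphorylates the regulatory light chain, was at 41.9 and 12.4 FPKM in BcatGOF cocultures, 53.4, 26.3 and 54.3 FPKM in wild-type cocultures, and 51.6, 43.5 and 90.8 FPKM in mesenchyme only. Both BcatGOF values were under all mesenchyme-only values. Its difference for BcatGOF coculture against mesenchyme only was -1.32 (SE 0.55, adjusted p = 0.894 in limma).

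Of the proteins that bind the actin filament, Tagln (transgelin, or SM22α, a calponin-like actin bundler of smooth muscle) was at 325 and 38.3 FPKM in BcatGOF cocultures, 603, 115 and 343 FPKM in wild-type cocultures, and 420, 406 and 532 FPKM in mesenchyme only. Both BcatGOF values lay under the mesenchyme-only range, and the difference was -1.99 (SE 0.93, adjusted p = 0.894 in limma). Tagln transcripts share 58.2% of their 31-base words with Gm48529, an annotated gene that overlaps it on the opposite strand, so its level is uncertain if reads could not be told apart. Cnn1, the calponin of smooth muscle, was at 37.3 and 3.82 FPKM in BcatGOF cocultures, 87.6, 11.2 and 35.0 FPKM in wild-type cocultures, and 57.6, 43.6 and 67.9 FPKM in mesenchyme only. Both BcatGOF values lay under the mesenchyme-only range (difference -2.06, SE 0.98, adjusted p = 0.896 in limma). Cnn2, a calponin found in many cell types, was at 194 and 100.1 FPKM in BcatGOF cocultures, 324, 128 and 221 FPKM in wild-type cocultures, and 260, 209 and 263 FPKM in mesenchyme only. It had the same lowest and highest libraries as Cnn1 but a smaller spread. The ratio of Cnn1 to Cnn2 was 0.0381 in BcatGOF replicate 2 and 0.0871 in wild-type replicate 2, against 0.159 to 0.270 in the other 6 libraries.

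Lmod1, the leiomodin that starts actin filaments in smooth muscle, was at 6.98 and 0.417 FPKM in BcatGOF cocultures, 12.6, 1.4 and 4.80 FPKM in wild-type cocultures, and 11.5, 4.29 and 15.2 FPKM in mesenchyme only. The groups overlapped, and the replicate numbered 2 was again the lowest of each. The tropomyosins, which wind along the actin filament, differed among themselves. Tpm1 was at 651 and 372 FPKM in BcatGOF cocultures, 1009, 508 and 649 FPKM in wild-type cocultures, and 698, 726 and 739 FPKM in mesenchyme only, so that both BcatGOF values lay under the mesenchyme-only range. Tpm2 had the same pattern, at 90.2 and 52.7 FPKM in BcatGOF cocultures, 152, 67.1 and 76.4 FPKM in wild-type cocultures, and 107, 92.1 and 94.3 FPKM in mesenchyme only. Tpm4, a tropomyosin of non-muscle filaments, was at 398 and 381 FPKM in BcatGOF cocultures, 515, 299 and 346 FPKM in wild-type cocultures, and 357, 342 and 304 FPKM in mesenchyme only, so both BcatGOF values lay over the mesenchyme-only range. None of the 3 tropomyosins passed the test in any comparison. Their fitted differences between BcatGOF coculture and mesenchyme only were -0.55 (SE 0.36), -0.49 (SE 0.37) and 0.23 (SE 0.27) for Tpm1, Tpm2 and Tpm4.

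Cald1, encoding the actin-binding protein caldesmon, was at 264 and 272 FPKM in BcatGOF cocultures, 333, 272 and 294 FPKM in wild-type cocultures, and 243, 222 and 243 FPKM in mesenchyme only. All 5 coculture libraries were over all 3 mesenchyme-only libraries, by a small margin (difference 0.18, SE 0.19, for BcatGOF and 0.34, SE 0.17, for wild-type coculture). Smtn, which encodes smoothelin, was at 28.7 and 44.9 FPKM in BcatGOF cocultures, 32.7 to 41.8 FPKM in wild-type cocultures and 18.4 to 36.2 FPKM in mesenchyme only. It was the only tested member whose highest library was BcatGOF replicate 2, which held for 22.7% of all genes tested. Des, encoding the intermediate filament desmin, had another order of libraries, at 0.599 and 1.41 FPKM in BcatGOF cocultures, 1.10, 6.78 and 17.8 FPKM in wild-type cocultures, and 0.227, 4.92 and 5.18 FPKM in mesenchyme only. Libraries numbered 1 had the lowest Des in each group, unlike Acta2, which was lowest in those numbered 2.

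**Figure D2:**
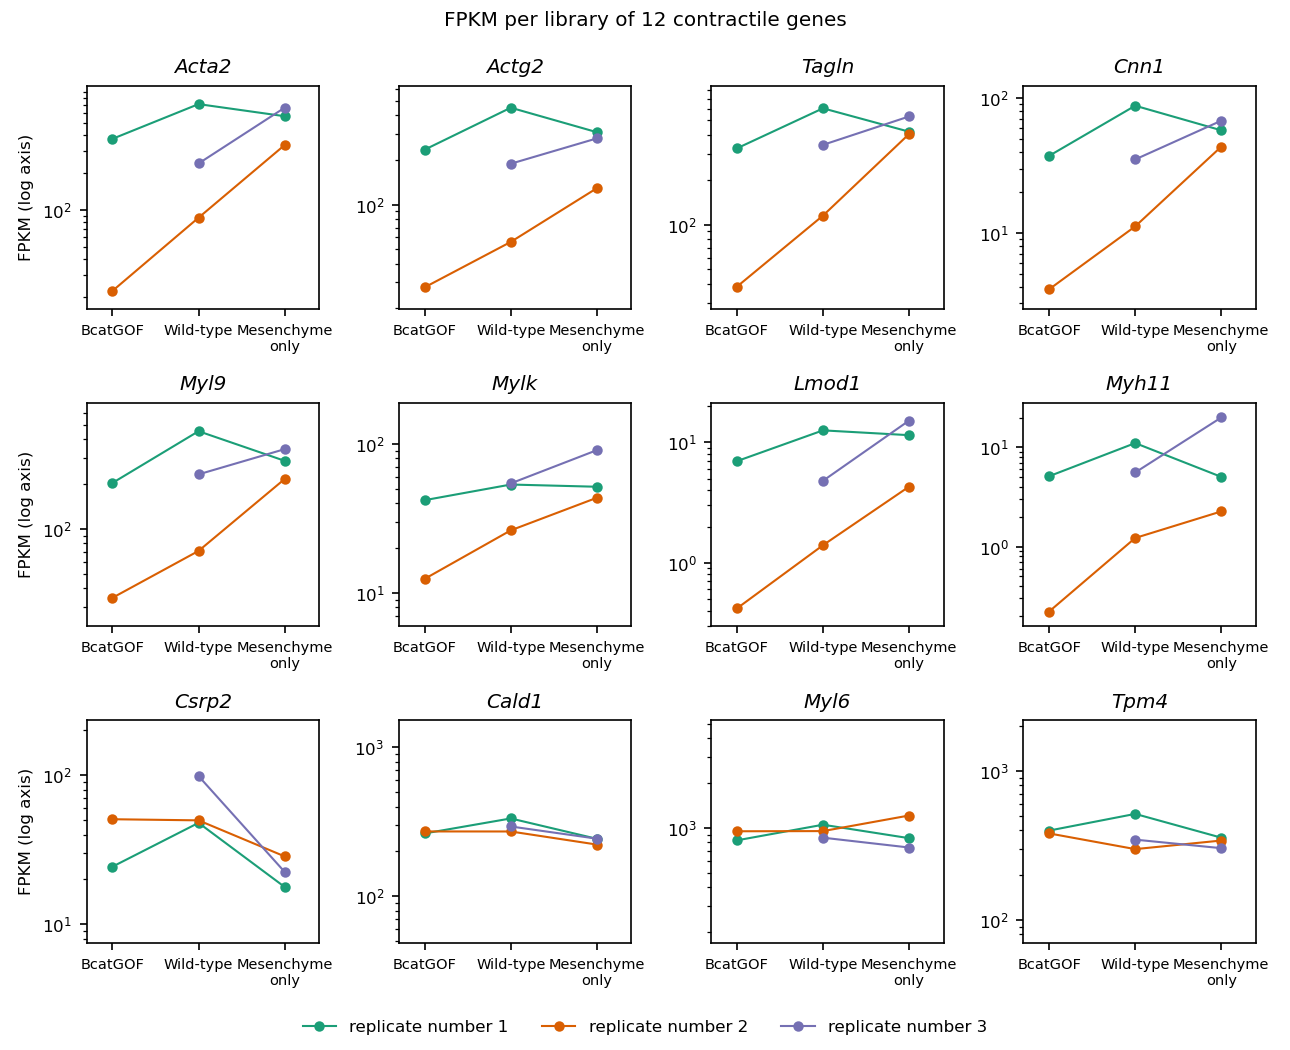
FPKM on log axes for 12 genes, 1 point a library, with lines that join libraries of equal replicate number across BcatGOF coculture, wild-type coculture and mesenchyme only. Replicate 2 is the lowest line for the first 8 genes, reaching 22.2 FPKM for Acta2 in BcatGOF coculture, whereas Cald1, Myl6 and Tpm4 stay nearly flat.

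Genes of focal adhesions and Z-discs varied less. Vcl, encoding vinculin, which couples integrins to actin, was at 83.3 and 29.4 FPKM in BcatGOF cocultures, 79.9, 29.7 and 49.4 FPKM in wild-type cocultures, and 95.2, 50.4 and 87.8 FPKM in mesenchyme only. Within each pair of equal replicate number the coculture value was the lower, but the groups overlapped. Flna (filamin A, an actin cross-linker) ran from 79.3 to 227 FPKM in BcatGOF cocultures, 117 to 280 FPKM in wild-type cocultures and 107 to 232 FPKM in mesenchyme only. Zyx (zyxin, found at focal adhesions) ran from 105 to 160 FPKM in BcatGOF cocultures, 117 to 207 FPKM in wild-type cocultures and 134 to 229 FPKM in mesenchyme only. Tns1 (tensin 1, which links integrins to actin) ran from 7.78 to 21.2 FPKM in BcatGOF cocultures, 10.7 to 22.8 FPKM in wild-type cocultures and 9.29 to 31.7 FPKM in mesenchyme only. All 3 of these genes were lowest in the replicate numbered 2 within BcatGOF cocultures and within mesenchyme only.

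The α-actinins Actn1 and Actn4, which cross-link actin filaments, were lower in both BcatGOF cocultures than in all 3 wild-type cocultures. Actn1 was at 212 and 152 FPKM in BcatGOF cocultures, 295, 226 and 239 FPKM in wild-type cocultures, and 203, 159 and 236 FPKM in mesenchyme only. Actn4 was at 166 and 149 FPKM in BcatGOF cocultures, 228, 170 and 173 FPKM in wild-type cocultures, and 173, 129 and 157 FPKM in mesenchyme only. The BcatGOF minus wild-type differences were -0.49 (SE 0.26) for Actn1 and -0.26 (SE 0.22) for Actn4, neither past the test. Such lower values without overlap were seen for 3 of the 30 members (10.0%), near the 7.64% of all genes tested. Palld, encoding the actin scaffold palladin, was at 70.0 and 47.8 FPKM in BcatGOF cocultures, 65.1 to 95.9 FPKM in wild-type cocultures and 41.8 to 66.7 FPKM in mesenchyme only. Synpo2, encoding an actin-bundling protein of muscle Z-discs, stayed between 0.614 and 2.98 FPKM in the 8 libraries.

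Csrp2, a LIM-domain protein known from smooth muscle, differed from the smooth muscle actins in direction. It was at 24.4 and 50.7 FPKM in BcatGOF cocultures, 48.0, 49.8 and 98.8 FPKM in wild-type cocultures, and 17.8, 28.6 and 22.5 FPKM in mesenchyme only. All 3 wild-type cocultures were over all 3 mesenchyme-only libraries, with a difference of 1.42 (SE 0.37, adjusted p = 0.786 in limma), the lowest adjusted value of any member in that comparison. Its relative Csrp1 did not share this, at 198 and 123 FPKM in BcatGOF cocultures, 296, 139 and 241 FPKM in wild-type cocultures, and 210, 217 and 322 FPKM in mesenchyme only. Of the PDZ and LIM proteins of stress fibres, Pdlim7 was at 81.4 and 93.8 FPKM in BcatGOF cocultures, 93.7 to 130 FPKM in wild-type cocultures and 80.1 to 103 FPKM in mesenchyme only. Pdlim5 was at 28.6 and 13.2 FPKM in BcatGOF cocultures, 14.4 to 25.7 FPKM in wild-type cocultures and 22.5 to 33.5 FPKM in mesenchyme only. Pdlim3 was at most 0.591 FPKM in any of the 8 libraries.

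Of the regulators among the members, Srf varied little and Myocd was hardly detected. Srf was at 26.4 and 22.05 FPKM in BcatGOF cocultures, 32.1, 26.7 and 31.7 FPKM in wild-type cocultures, and 32.3, 23.7 and 33.6 FPKM in mesenchyme only. Both BcatGOF values were under the wild-type range, by a narrow margin over wild-type replicate 2 (difference -0.31, SE 0.20, adjusted p = 1 in limma). Across the 8 libraries Srf varied far less than Acta2, Tagln or Cnn1. Myocd, encoding myocardin, was listed at 0 in both BcatGOF cocultures and at 0.0114 to 0.0458 FPKM in the other 6 libraries, a level at which differences are not detectable.

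In BcatGOF coculture the smooth muscle genes Tagln, Cnn1, Myl9 and Mylk were at lower levels than in every mesenchyme-only library. Acta2 and Actg2 were lower in each pair of equal replicate number. Tpm4 and Cald1 (6.67% of the members, against 8.49% of all genes) were slightly higher than in every mesenchyme-only library. Smtn and Csrp2 were higher by more in pairs 1 and 2, at 0.22 and 1.24 log2 units for Smtn and 0.43 and 0.81 for Csrp2. BcatGOF replicate 1 lay close under the lowest mesenchyme-only value for Mylk (41.9 against 43.5 FPKM), Myl9 (203 against 216) and Cnn1 (37.3 against 43.6). The gap was wider for Tagln (325 against 406 FPKM). None of the 30 tested members passed an adjusted p under 0.05 in limma. Over all 12927 genes tested, 0% were called higher and 0.00774% (1 gene, Snora15) lower. Of the 30 members, 24 were lower and 6 higher, with a median log2 difference of -0.53, against a median of 0.01 over all genes tested. The size of that median depended on which BcatGOF library entered, since it was -0.13 without BcatGOF replicate 2 (17 members lower, 13 higher) and -1.0 without BcatGOF replicate 1 (24 lower, 6 higher). At an unadjusted p under 0.05, 1 member was lower (Mylk) and 0 higher, where 2.62% of all genes were lower and 2.88% higher. With the replicate number as a block, 12 of the 30 members (Acta2, Actg2, Tagln, Cnn1, Cnn2, Myl9, Mylk, Lmod1, Synpo2, Vcl, Pdlim5 and Zyx) were lower at an unadjusted p under 0.05 and 0 were higher, where 3.67% of all genes were lower and 4.17% higher. In that blocked fit the difference of Acta2 was -2.34 (SE 0.72), and the lowest adjusted p of any member was 0.632 in limma. With the replicate block as a random effect of estimated correlation, 8 members were lower (4.73% of all genes) and 0 higher (5.3%), and Actg2, Vcl, Pdlim5 and Zyx were no longer among them.

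Values that did not overlap between BcatGOF coculture and mesenchyme only were lower in BcatGOF for 8 of the 30 members, or 26.7% (Tagln, Cnn1, Cnn2, Myl9, Mylk, Tpm1, Tpm2 and Csrp1), against 7.82% of all genes tested. They were higher for 2 members (Tpm4 and Cald1), against 8.49% of all genes. Within pairs of equal number, the median member difference was -0.15 in pair 1 (21 members lower, against 49% of all genes) and -0.74 in pair 2 (23 lower, against 50.1%). In pair 2, 10 members (33.3%) were lower by more than 1 log2 unit, against 6.28% of all genes, and in pair 1 there were 0, against 0.712%. The pair 2 differences reached -3.85 for Acta2, -3.37 for Tagln, -3.21 for Cnn1 and -2.61 for Myl9, where pair 1 gave -0.60, -0.37, -0.61 and -0.49 for the same genes. For these 4 genes the direction was the same in both pairs and the size was not. In all, 20 members (66.7%) were lower in both pairs, against 28.5% of all genes, and 6 higher in both (Tpm4, Smtn, Cald1, Pdlim7, Csrp2 and Palld, against 28.9%).

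Wild-type coculture gave no common direction against mesenchyme only. Acta2, Tagln, Cnn1 and Myl9 were higher in pair 1 and lower in pairs 2 and 3, and the LIM protein gene Csrp2 was higher in all 3 pairs. None of the 30 members passed an adjusted p under 0.05 in limma. Of all genes tested, 0% were called higher and 0.00774% lower, again Snora15 alone. Here 19 members were lower and 11 higher, with a median of -0.20 against 0.02 over all genes, and this median changed sign without wild-type replicate 2 (0.14). The pairs disagreed, with medians of 0.47 in pair 1, -0.40 in pair 2 and -0.36 in pair 3. In pair 1, 25 members were higher in the coculture, against 52.6% of all genes. In pair 2, 19 were lower (50.1%), and in pair 3, 20 were lower (45.8%). Acta2 shows the split, with differences of 0.32, -1.93 and -1.49 over the 3 pairs.

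Some members kept 1 direction in all 3 wild-type pairs. Des, Cald1, Actn1, Actn4, Pdlim7, Csrp2 and Palld were higher in each, which is 7 of 30, against 20.6% of all genes, and Synpo2, Vcl and Pdlim5 were lower in each, against 17.4%. These are 23.3% and 10.0% of the members, the first near the share over all genes and the other under it. At an unadjusted p under 0.05, 1 member was higher (Csrp2, against 2.29% of all genes) and 0 lower (2.61%). With the replicate block, 3 were higher (Cald1, Csrp2 and Palld, against 5.04%) and 3 lower (Synpo2, Vcl and Pdlim5, against 5.28%), and the lowest adjusted p of a member was 0.249 in limma. With the block as a random effect, 4 were higher (Pdlim7 in addition, against 5.52%) and 1 lower (Pdlim5, against 5.45%). Groups without overlap numbered 2 members higher (Cald1 and Csrp2, against 6.35%) and 0 lower (5.61%).

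Within each pair of equal replicate number, Acta2, Actg2, Tagln, Cnn1, Myl9 and Mylk were lower with BcatGOF than with wild-type enteroids, although for each of these genes the groups overlapped. For BcatGOF against wild-type coculture, none of the 30 members and none of the 12927 genes passed an adjusted p under 0.05 in limma (0% in each direction). An unadjusted p under 0.05 was reached by 0 members. Among all genes it was reached by 144 that were higher (1.11%) and 229 that were lower (1.77%). Of the members, 27 were lower and 3 higher, with a median of -0.43 against 0.01 over all genes. Without BcatGOF replicate 2 the median was -0.01, with 15 members lower and 15 higher, and without BcatGOF replicate 1 it was -0.80. Within pairs of equal replicate number the median member was lower in BcatGOF coculture both times, at -0.46 (27 members lower, against 51.9% of all genes) and -0.37 (25 lower, against 49.7%).

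In both of these pairs 22 of 30 members (73.3%) were lower in BcatGOF coculture, against 24.5% of all genes, and 0 were higher in both, against 22.2%. The differences were -0.93 and -1.92 for Acta2, -1.21 and -1.34 for Cnn1, -0.89 and -1.56 for Tagln, and -1.15 and -1.02 for Myl9. Each of these differences is between single libraries. With the replicate block, 3 members (Des, Actn1 and Palld) were lower at an unadjusted p under 0.05, against 2.85% of all genes, and 0 were higher, against 2.18%, with a lowest adjusted p of 0.889 in limma. With the block as a random effect, 1 was lower (Actn1, against 3.4%) and 0 higher (2.57%). Groups without overlap were lower in BcatGOF for 3 members (Srf, Actn1 and Actn4, or 10.0%, near the 7.64% of all genes) and higher for 0 (6.36%). The comparisons share libraries, since each group enters 2 of the 3.

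**Figure D3:**
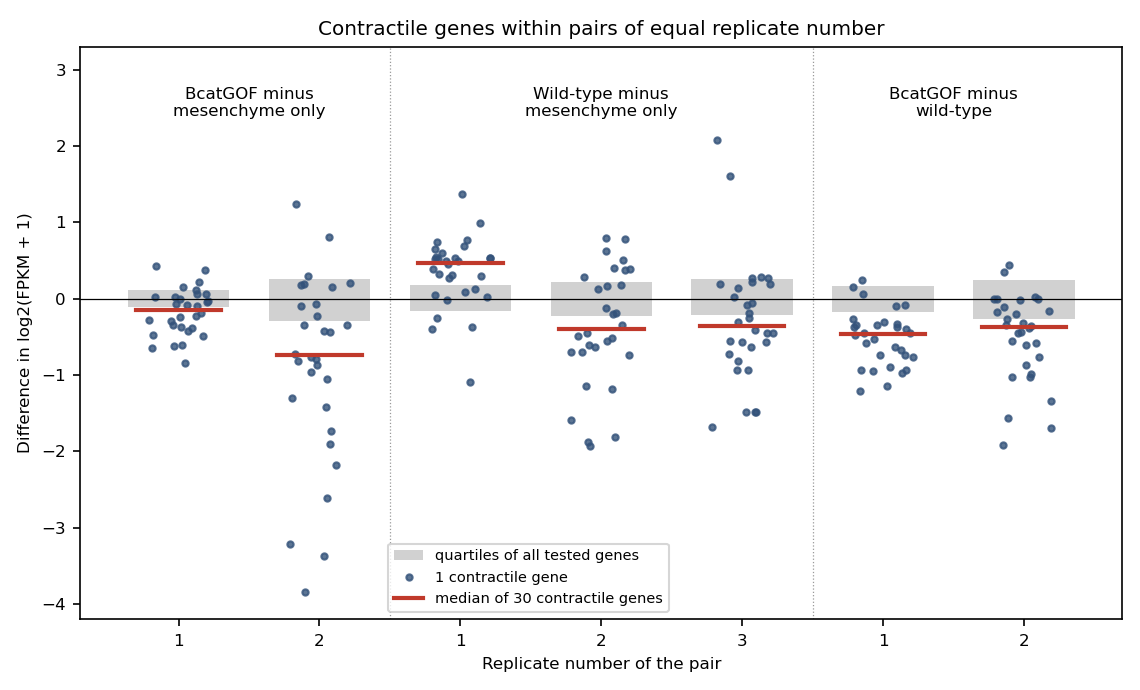
Differences in log2(FPKM + 1) between libraries of equal replicate number, for BcatGOF minus mesenchyme only, wild-type minus mesenchyme only, and BcatGOF minus wild-type; points are the 30 tested contractile genes, red lines their medians and grey boxes the quartiles of all 12927 tested genes. The medians are -0.15 and -0.74, then 0.47, -0.40 and -0.36, then -0.46 and -0.37.

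The libraries numbered 2 were the low ones for most of these genes in every group. BcatGOF replicate 2 was the lowest of the 8 libraries for 21 of the 30 members (70.0%), against 22.9% of all genes tested, and wild-type replicate 1 was the highest for 15, against 8.21%. Within the wild-type cocultures replicate 2 was the lowest for 26 members (33.4% of all genes), and within mesenchyme only for 22 (36.6%). The replicate numbered 2 was the lowest in all 3 groups for 19 members, against 15.7% of all genes. Relative to the mean of the mesenchyme-only libraries, the median member was at -0.13 and -1.0 in BcatGOF cocultures, 0.49, -0.62 and -0.14 in wild-type cocultures, and 0.10, -0.33 and 0.25 in mesenchyme only. The library numbered 2 thus had the lowest median of each group, mesenchyme only included, and over the libraries numbered 2 the median was lowest in BcatGOF coculture.

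Markers of other cells were read beside these values. The summed FPKM of 15 epithelial markers, 11 of which reached 1 FPKM in some library, was 32.1 and 126 in BcatGOF cocultures, 18.2, 9.23 and 123 in wild-type cocultures, and 6.33, 7.37 and 8.21 in mesenchyme only. The keratin Krt8 was at 7.27 and 38.5 FPKM in BcatGOF cocultures, 3.86, 0.813 and 35.4 FPKM in wild-type cocultures, and at most 0.0848 FPKM in mesenchyme only. Not every marker on the list was highest in a coculture. Lgr5 was highest in mesenchyme only replicate 1, at 2.08 FPKM, and Lyz1 in mesenchyme only replicate 3, at 4.12 FPKM. BcatGOF replicate 2, the library with the lowest contractile median (-1.0), had the highest epithelial sum. Wild-type replicate 3, with an epithelial sum of 123, had a median of -0.14. Wild-type replicate 2, with the second lowest median (-0.62), had the lowest epithelial sum of the cocultures. Olfm4 was at 0 in 7 of the 8 libraries. The part of epithelial RNA in the contractile values was not tested.

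Proliferation genes summed to 33.6 and 13.8 FPKM in BcatGOF cocultures, 44.9, 37.0 and 36.3 FPKM in wild-type cocultures, and 30.9, 47.9 and 34.2 FPKM in mesenchyme only (5 of 5 markers detected). BcatGOF replicate 2 was the lowest here too. Leukocyte markers, 2 of 7 reaching 1 FPKM, summed to 34.5 and 63.0 FPKM in BcatGOF cocultures, 16.2, 84.6 and 38.3 FPKM in wild-type cocultures, and 43.7, 86.0 and 57.6 FPKM in mesenchyme only. Nearly all of it was Lyz2, with Cd3e at 0 and Ptprc at no more than 0.0508 FPKM, and it was highest in the replicate numbered 2 of each group. The mesothelial list (2 of 3 markers reaching 1 FPKM, mostly Wt1 except in BcatGOF replicate 2) summed to 5.70 and 8.76 FPKM in BcatGOF cocultures, 6.95, 34.3 and 50.4 FPKM in wild-type cocultures, and 2.32, 16.9 and 18.4 FPKM in mesenchyme only. The sum was lowest in the library numbered 1 of each group, as Des was. In BcatGOF replicate 2 Msln was at 5.45 FPKM and Wt1 at 3.29 FPKM. Wt1 alone was higher in BcatGOF replicate 1, at 4.72 FPKM. The pericyte list (7 of 7 markers) summed to 138 to 253 FPKM over the 8 libraries and was highest in mesenchyme only replicate 3. Of the muscle list Myod1, Myog and Ckm were at 0 in all libraries and 1 of 10 markers reached 1 FPKM, and no endothelial marker did. The enteric glia list (1 of 4 markers reaching 1 FPKM) summed to 0.666 and 9.14 FPKM in BcatGOF cocultures, 1.08 to 1.73 FPKM in wild-type cocultures and 0.588 to 0.879 FPKM in mesenchyme only. Of the 9.14 FPKM in BcatGOF replicate 2, S100b made up 8.82 FPKM, and Sox10 was at 0 there. The list of interstitial cells of Cajal (2 of 3 markers) summed to 18.5 and 30.49 FPKM in BcatGOF cocultures, 10.3 to 16.9 FPKM in wild-type cocultures and 11.5 to 18.1 FPKM in mesenchyme only. It too was highest in BcatGOF replicate 2, where Etv1 was at 28.8 FPKM and Kit at 0.0587 FPKM. The part of these cells in the contractile values was not tested.

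**Figure D4:**
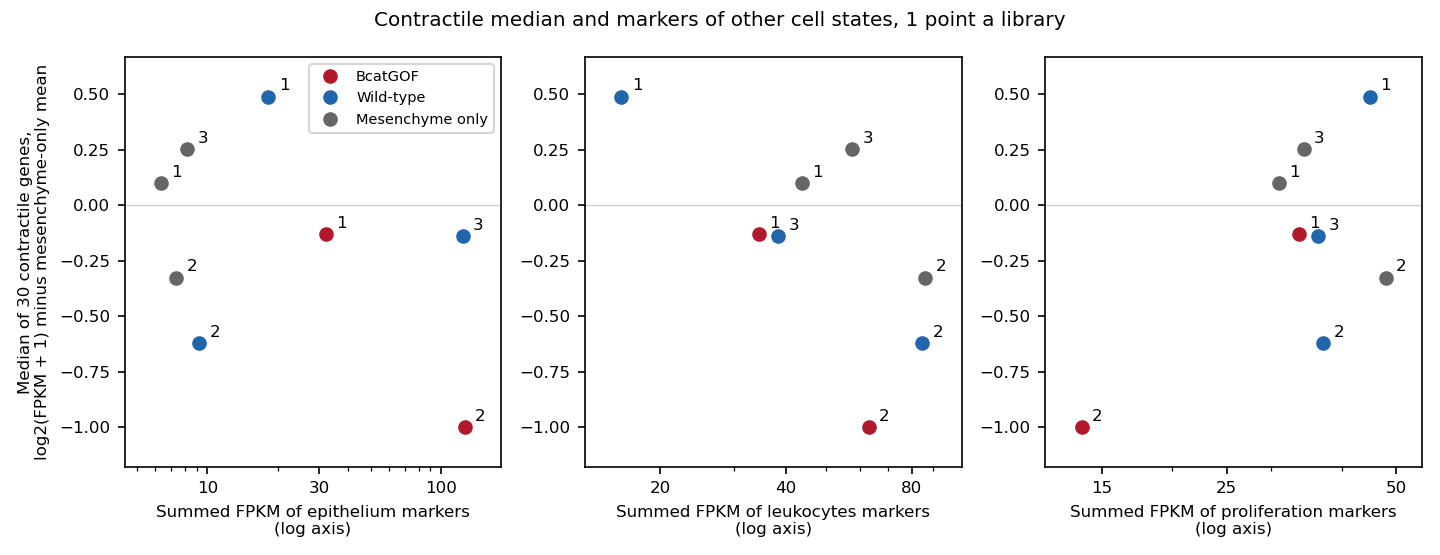
The median of the 30 tested contractile genes per library, as log2(FPKM + 1) minus the mesenchyme-only mean, against the summed FPKM (log axes) of the epithelial, leukocyte and proliferation markers; numbers are replicates. BcatGOF replicate 2 has the lowest median (-1.0), the highest epithelial sum (126 FPKM) and the lowest proliferation sum (13.8 FPKM), while wild-type replicate 2 combines a median of -0.62 with an epithelial sum of 9.23 FPKM.

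The authors' deposited table of BcatGOF coculture against mesenchyme only lists 2184 genes past a threshold, with adjusted p-values of at most 0.015. That is 8.76% of all 24930 genes, many of which were not tested here. Among the 12927 genes tested here, 1955 are listed. Of the 2184, 1259 were lower and 925 higher in BcatGOF coculture. Of the 33 contractile genes the authors' deposited table lists 9, all of them tested here. Of these, 7 were lower in BcatGOF coculture (Acta2, Tagln, Myl9, Mylk, Synpo2, Vcl and Pdlim5) and 2 higher (Smtn and Csrp2). In the authors' deposited table Acta2 has a log2 fold change of -3.22 with an adjusted p of 0.00842, Mylk of -2.01 with an adjusted p of 1.82e-05, and Csrp2 of 1.5 with an adjusted p of 0.00142. The log2 ratio of mean FPKM computed here, BcatGOF over mesenchyme only, was -1.4 for Acta2, -1.19 for Mylk and 0.71 for Csrp2. The other 6 have log2 fold changes in the authors' deposited table of -2.27 for Tagln, -2.35 for Myl9, -2.10 for Synpo2, -1.55 for Vcl, -1.22 for Pdlim5 and 1.04 for Smtn. Their log2 ratios of mean FPKM were -1.32 for Tagln, -1.24 for Myl9, -0.95 for Synpo2, -0.47 for Vcl, -0.45 for Pdlim5 and 0.48 for Smtn. All 9 genes had the same direction in both sources, and each value of the authors' deposited table was the larger in size. The direction was also the same for 1924 of the 1955 listed genes tested here, so it is not particular to the members. Each of the 9 deposited values lay within the range of the 6 ratios between single libraries, which for Acta2 ran from -4.91 to 0.17. The sources used here do not say which libraries entered the authors' deposited table.

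A list of 69 further genes of contraction, adhesion and SRF signalling was read the same way, of which 65 were tested. None of the 65 passed an adjusted p under 0.05 in limma in any comparison. Their median difference was -0.18 for BcatGOF coculture against mesenchyme only (43 lower, 22 higher), -0.04 for wild-type coculture against mesenchyme only (37 lower, 28 higher), and -0.14 for BcatGOF against wild-type coculture (44 lower, 21 higher). With p below 0.05 before adjustment, BcatGOF coculture against mesenchyme only had 3 lower and 2 higher (2.62% and 2.88% of all genes tested). Wild-type coculture against mesenchyme only had 1 lower and 2 higher (2.61% and 2.29%). BcatGOF against wild-type coculture had 2 lower and 0 higher (1.77% and 1.11%). Over all 12927 genes tested, the medians were 0.01, 0.02 and 0.01 in the same order, with 6146, 5974 and 6277 genes lower. Each median of the 65 was smaller in size than that of the 30 members in the same comparison. Itga5, the α subunit of the fibronectin receptor, had the lowest p of the list for wild-type coculture, at 188, 164 and 198 FPKM in wild-type cocultures against 120, 69.4 and 100.6 FPKM in mesenchyme only (difference 0.95, SE 0.23, adjusted p = 0.701 in limma). Fhl2, a LIM-domain cofactor of SRF, had the lowest p between cocultures, at 120 and 98.9 FPKM in BcatGOF cocultures against 226, 163 and 314 FPKM in wild-type cocultures (difference -1.04, SE 0.35, adjusted p = 1 in limma).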

How the data were processed

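The authors deposited FPKM values for 24930 genes in 8 libraries. Their second deposited table holds, for genes past a threshold in BcatGOF coculture against mesenchyme only, the authors' mean normalized signal, log2 fold change with standard error, test score, p-value and adjusted p-value. In it a positive fold change is taken to mean higher in BcatGOF coculture. Under that reading 1924 of the 1955 listed genes tested here have the direction of their FPKM ratio, so this shared direction is not separate evidence. The tools kallisto 0.46.1 and DESeq2 1.40.1 and the build mm9 stand in the submitters' processing notes, and the sources used here do not say how each was applied.

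A gene was kept if 2 or more libraries reached 1 FPKM (12927 genes). Group means of log2(FPKM + 1) were fitted to all 8 libraries in limma 3.58.1 (R 4.3.3; trend and robust options), with two-sided p-values adjusted by the Benjamini-Hochberg method over all genes kept. The fit was tested on simulated data. FPKM are estimates without counts, so no counting interval can be given. The members, the lists and the rule for named genes (all members, with per-library values for those that differed most or were most abundant) were chosen with earlier results of these data known.

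Samples with the same replicate number pair. Their deviations from group means correlated at 0.301 to 0.554 (7 pairs), against -0.483 to 0.208 between other numbers (14 pairs). The 2 BcatGOF libraries deviate by equal and opposite amounts, so their correlations mirror each other, as 0.483 and -0.483 with mesenchyme only replicate 2. The pairs are therefore not independent of each other. The labels do not say what the number marks. A second fit therefore took the number as a replicate block, fixed or as a random effect, and its counts stand beside those of each comparison. Differences, SE and p-values of single genes are from the fit without the block unless the block is named.

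Shared 31-base words were counted in GENCODE M21 transcripts. Beside Tagln, over 10% were shared with another gene for Vcl (25.3%, with Ap3m1, which overlaps it on the opposite strand), Tpm4 (20.0%), Smtn (12.0%) and Myl6 (11.4%), so their levels are uncertain where reads were split. Motifs were searched on both strands. Plots used matplotlib 3.10.9 (python 3.11.15).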

Additional observations from a re-analysis of the deposited data

How the results depend on the processing

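Under the alternative runs, no tested member passed an adjusted p under 0.05 in limma in a comparison with 2 or more libraries per group. The lowest adjusted p of a member in limma was 0.152, for wild-type coculture against mesenchyme only with the random replicate block. Leaving out a BcatGOF library leaves 1 in that group, so for its comparisons only effect sizes and their signs are read from those runs. The numbers of genes called in such runs, listed below, rest on a single BcatGOF library and are not read as results. The files hold no counts, so no limit of depth can be given for genes near 0 such as Myocd and Actc1. The replicate block changed no member's call; it moved counts at an unadjusted p, given beside the results. Of 858 values of single genes under the alternatives, 812 kept their sign and 46 did not. The cause of the shifts was not tested.

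For wild-type coculture against mesenchyme only, the count of genes called, 1 in all, was 0 with a filter at a mean of 5 FPKM, 2 with a fixed and 5 with a random replicate block, 9 with only the 2 groups compared, and 9 without BcatGOF replicate 2 and wild-type replicate 3 together. For BcatGOF coculture against mesenchyme only (1 called) it was 6 with no filter and 0 with the filter at a mean of 5 FPKM. For BcatGOF against wild-type coculture (0 called) it was 4 with no filter. Leaving out single libraries, the counts ran from 1 to 9 for wild-type and from 1 to 198 for BcatGOF coculture against mesenchyme only, with 198 reached without BcatGOF replicate 1.

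The median of the members for BcatGOF against wild-type coculture ran from -0.80 to -0.0061 over single libraries left out and was 0.029 without BcatGOF replicate 2 and wild-type replicate 3 together. Without both, the differences of that comparison were 0.59 for Acta2, 0.22 for Cnn1, 0.30 for Tagln, 0.18 for Myl9, 0.48 for Lmod1, 0.24 for Myh11, 0.55 for Actg2, 0.16 for Mylk and 0.60 for Acta1. Leaving out single libraries, they ran from -3.41 to 0.61 for Acta2, -2.81 to 0.18 for Cnn1, -2.88 to 0.17 for Tagln, -2.47 to 0.054 for Myl9, -2.02 to 0.48 for Lmod1, -2.20 to 0.13 for Myh11, -2.56 to 0.47 for Actg2, -0.84 to 0.50 for Acta1 and -0.12 to 0.28 for Tpm4. The lower end came without BcatGOF replicate 1 and the upper without BcatGOF replicate 2, except for Tpm4. With the replicate block Tpm4 was at -0.014, and with quantile normalization Myl6 was at 0.062.

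For BcatGOF coculture against mesenchyme only, leaving out single libraries gave -2.96 to 0.072 for Actg2, -1.30 to 0.041 for Acta1 and -0.20 to 0.16 for Myl6, and leaving out both libraries gave 0.072 for Actg2 and 0.041 for Acta1.

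For wild-type coculture against mesenchyme only, single libraries left out gave -1.43 to 0.0017 for Cnn1, -1.17 to 0.018 for Tagln, -1.10 to 0.23 for Myl9, -1.01 to 0.34 for Myh11, -1.11 to 0.38 for Actg2, -0.52 to 0.14 for Cnn2, -0.42 to 0.12 for Csrp1, -0.33 to 0.17 for Tpm1, -0.050 to 0.34 for Tpm4, -0.10 to 0.26 for Myl6 and -0.13 to 0.11 for Srf. Quantile normalization gave -0.070 for Myl6 and -0.037 for Srf, and leaving out both libraries -0.012 for Srf.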
